A study of Mus musculus with 48 samples.

Results

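Follistatin (Fst) and the activin beta subunits Inhba, Inhbb, Inhbc and Inhbe were followed in mouse liver across a hepatocyte knockout, a high-fat diet and a fast. The members are the genes whose symbols the array's design gives to its non-control probes, and all 5 were measured, out of 20486 genes with a probe above background. Livers came from male mice on a C57BL/6J background carrying floxed alleles of p110α, the catalytic subunit of the insulin-responsive PI 3-kinase. Albumin-Cre+/- p110αflox/flox mice (p110αhep-/-, called LKO in the plots) were compared with Cre-negative floxed littermates (p110αhep+/+, LWT), and both genotypes therefore carried the floxed alleles. From 12 weeks of age the mice ate a control diet (CTRL) or a diet with 60% of calories from fat (HFD) for 12 weeks, and they were killed at 24 weeks of age at ZT16, fed ad libitum (FED) or after 24 h without food (FASTED). This gave 8 groups of 6 mice and 48 one-colour Agilent arrays, 1 mouse per array. The albumin promoter drives Cre mainly in hepatocytes, and deletion in other liver cells was not measured here.

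Activins are dimers of beta subunits that signal through type II receptors (Acvr2a, Acvr2b) and type I receptors (Acvr1b, Acvr1c) to SMAD2 and SMAD3. Inhba and Inhbb encode the subunits of activin A and activin B, while Inhbc and Inhbe, which lie side by side on chromosome 10, encode subunits made mainly by the liver. Follistatin is a secreted protein that binds activins and keeps them from their receptors. It is one of the hepatokines, proteins that the liver releases into blood, and liver Fst is known as a gene whose expression depends on insulin signalling and FOXO1.

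Each member had 1 probe, of 60 bases, and each probe was well above its local background on all 48 arrays. The probes of Fst and Inhba are shown because Fst passed in 3 of 4 genotype comparisons and Inhba in all 4 fasting comparisons. The Fst probe (chr13:115244692-115245364, minus strand, mm9) spans 673 bases of genome and so crosses an intron, and the Inhba probe (chr13:16118634-16118693, plus strand, mm9) lies in 1 block.
Fst: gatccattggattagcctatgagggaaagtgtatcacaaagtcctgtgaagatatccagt
Inhba: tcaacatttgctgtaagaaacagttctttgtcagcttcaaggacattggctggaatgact
The remaining probes lie at chr1:121312160-121312219 (Inhbb), chr10:126793865-126793924 (Inhbc) and chr10:126786719-126786778 (Inhbe), all on the minus strand of mm9. Inhbe and Inhbc have 0 annotated genes between them, and their promoters are printed because these neighbours were called in different comparisons. No test compared these genes with each other. The sequences are the 250 bases before each start site from RefSeq (GRCm38.p6, minus strand), at chr10:127351849-127352098 for Inhbe and chr10:127370549-127370798 for Inhbc.
Inhbe: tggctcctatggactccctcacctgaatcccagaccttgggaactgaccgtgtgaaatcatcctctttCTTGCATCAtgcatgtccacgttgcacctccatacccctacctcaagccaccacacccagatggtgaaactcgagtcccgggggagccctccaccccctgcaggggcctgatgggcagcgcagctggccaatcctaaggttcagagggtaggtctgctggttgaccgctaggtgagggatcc
Inhbc: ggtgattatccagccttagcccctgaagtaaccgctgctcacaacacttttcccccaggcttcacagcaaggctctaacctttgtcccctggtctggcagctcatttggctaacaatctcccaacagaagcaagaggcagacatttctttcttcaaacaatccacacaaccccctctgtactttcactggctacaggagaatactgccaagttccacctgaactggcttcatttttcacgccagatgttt
The capitals mark the only match found among 5 motifs searched on both strands in the 4 member promoters that the table holds (Inhba, Inhbb, Inhbc and Inhbe), a reverse-strand match in Inhbe to an ATF4 element (TGATGNAAN) lying 182 bases before the start. This element occurs in 3.44% of 32851 promoters of the same length, and the FOXO core GTAAACA (3.17% of promoters), the CRE core TGACG (17.8%), the E-box CACGTG (6.02%) and the SMAD box GTCTAGAC (0.167%) were not in these 4 windows. A match of letters is a description and shows no binding.

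Signals are normalized log2 intensities, in which 1 unit is a 2-fold difference, and a difference is called where the limma adjusted p, taken over all probes kept, is at most 0.05. Group values are mean ± SD of 6 arrays, and fitted differences are given with their standard error (SE). The fit weights the arrays by their estimated quality, so a fitted difference or fold is not exactly the difference of the plain means printed beside it. The arrays were of like quality, with 52.3% to 59.3% of non-control spots well above background, 0 saturated spots and correlations of 0.9888 to 0.9974 between arrays of a group. All 5 hepatocyte markers (Alb, Ttr, Apoa1, Ahsg, Tat) were above background on every array. The Pik3ca probe, for the gene of p110α, was not lower in p110αhep-/- livers (log2 difference 0.39, adjusted p = 0.000403, in CTRL FED and 0.58 in HFD FED), so it gave no check of the deletion and the genotype labels were taken as given. Every member passed the filter on low signals.

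**Figure D1:**
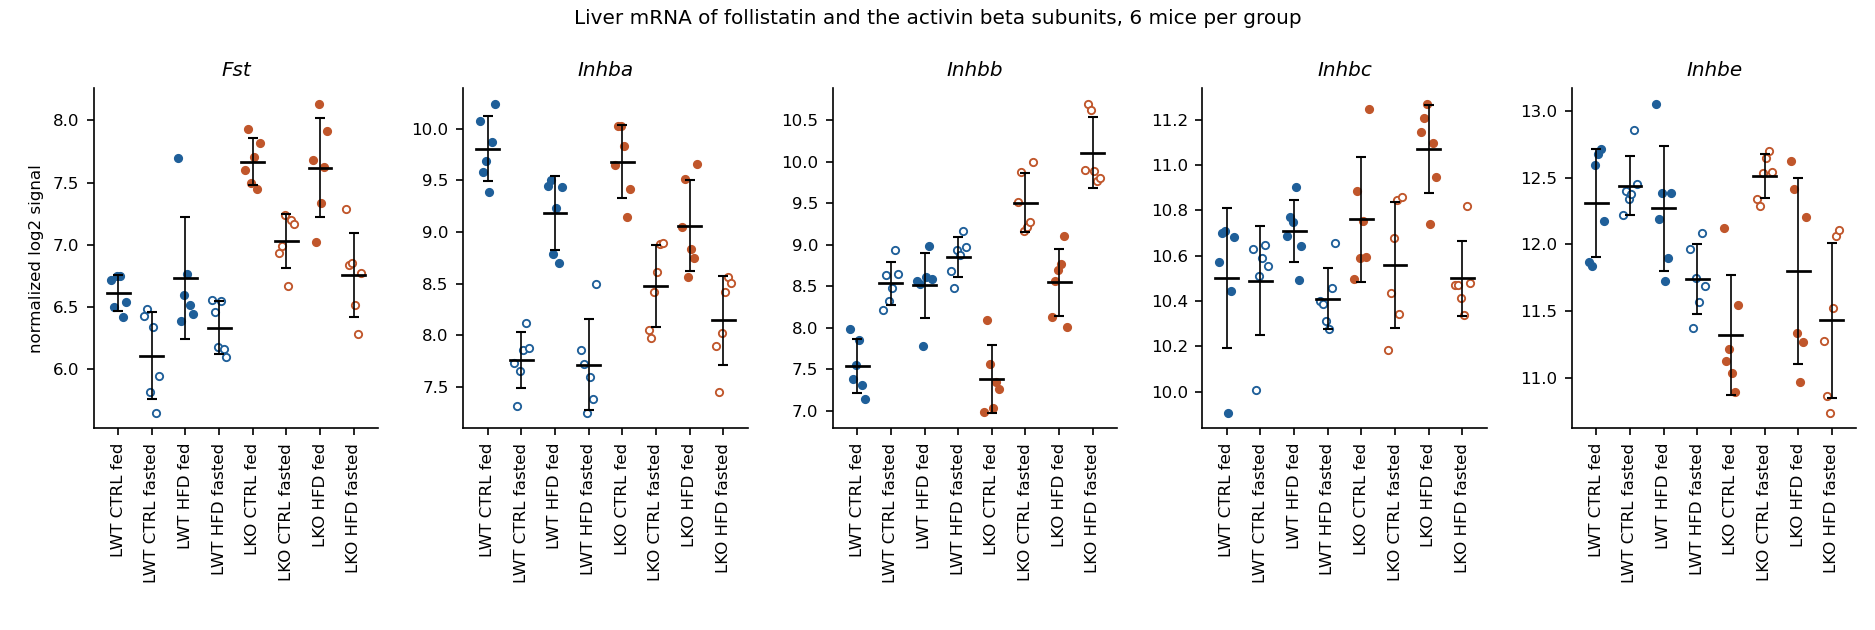
Normalized log2 signal of Fst, Inhba, Inhbb, Inhbc and Inhbe in each of 48 livers (blue, LWT, p110αhep+/+; orange, LKO, p110αhep-/-; filled, fed; open, fasted), with bars at the mean and SD of 6 mice; each panel has its own axis, which does not start at 0. Fst points of fed LKO livers on CTRL (7.45 to 7.93) lie above all fed LWT points on CTRL (6.42 to 6.75), Inhba falls from filled to open points, and Inhbb is highest in fasted LKO livers on HFD.

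Fst was higher without hepatocyte p110α in 3 of 4 conditions and lower after fasting in 3 of 4 genotype and diet groups. In fed mice on CTRL its signal was 7.67 ± 0.19 in p110αhep-/- and 6.61 ± 0.14 in p110αhep+/+ livers, a fitted difference of 2.02-fold. No HFD difference in Fst passed in its 4 comparisons.

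Among fed mice on CTRL, the lowest, median and highest Fst signals were 6.42, 6.63 and 6.75 in p110αhep+/+ and 7.45, 7.66 and 7.93 in p110αhep-/- livers. Among fed mice on HFD they were 6.39, 6.55 and 7.70 in p110αhep+/+ and 7.02, 7.65 and 8.13 in p110αhep-/- livers. The genotypes did not overlap on CTRL, and on HFD they overlapped through 1 p110αhep+/+ liver, replicate 1, at 7.70. After the fast the p110αhep+/+ arrays read 5.65, 6.14 and 6.48 on CTRL and 6.10, 6.32 and 6.56 on HFD, against 6.67, 7.08 and 7.24 and then 6.28, 6.80 and 7.28 in p110αhep-/- livers. Fasted genotypes again did not overlap on CTRL and overlapped on HFD.

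The fitted genotype difference in Fst was 1.01 (SE 0.168, adjusted p = 1.93e-05) in CTRL FED, 0.83 (SE 0.168, adjusted p = 0.000167) in HFD FED and 0.94 (SE 0.161, adjusted p = 2.38e-05) in CTRL FASTED. In HFD FASTED it was 0.41 (95% interval 0.06 to 0.76, adjusted p = 0.0624), which did not pass. The genotype differences on HFD and CTRL were not shown to differ in fasted mice (interaction -0.53, adjusted p = 0.192). Within each of the 2 washing batches the CTRL FED difference was 1.02 and 1.00, the HFD FED difference 0.69 and 1.09 and the CTRL FASTED difference 0.80 and 1.05, and each of these passed (adjusted p between 0.00517 and 0.0454). The Fst probe was dim, with raw signals of 47.5 to 255 over a local background of 21 to 39, and with Agilent's background-subtracted signal scaled to the 75th percentile, which changes signal and scaling together, the CTRL FASTED difference was 1.47 and the HFD FASTED difference 0.71 (adjusted p = 0.0234). The HFD FASTED difference also passed with normexp background correction (0.36, adjusted p = 0.0329), with median scaling (0.45, adjusted p = 0.0372) and in 2 of the other alternatives.

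Fasting lowered Fst by 0.55 (SE 0.163, adjusted p = 0.00769) in p110αhep+/+ and by 0.63 (SE 0.166, adjusted p = 0.00258) in p110αhep-/- livers on CTRL, and by 0.75 (SE 0.183, adjusted p = 0.00166) in p110αhep-/- livers on HFD. In p110αhep+/+ livers on HFD the difference was -0.33 and did not pass (adjusted p = 0.117). The fed and fasted arrays overlapped except in p110αhep-/- mice on CTRL. With the background-subtracted signal and 75th percentile scaling the difference in p110αhep+/+ livers on CTRL was -0.89, and within the washing batches it was -0.38 (adjusted p = 0.342) and -0.76 (adjusted p = 0.0128). The difference in p110αhep-/- livers on HFD was -0.999 (adjusted p = 0.0111) and -0.62 (adjusted p = 0.116) by batch, and that on CTRL passed in both. HFD differences in Fst lay between -0.24 and 0.29, with adjusted p from 0.235 to 0.81.

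In whole liver, fewer cells of a type and less RNA per cell cannot be told apart. Of 5 cholangiocyte markers, Krt19, Krt7, Epcam, Sox9 and Spp1, 3 were lower in p110αhep-/- livers in CTRL FED and 4 in each of the other genotype comparisons, with differences from -2.63 to -1.76 for Spp1. Their summed signal ranged from 1450 to 5400 in p110αhep+/+ and from 559 to 1130 in p110αhep-/- livers, and of the 48 arrays Krt19 was well above background on 45, Krt7 on 28 and Epcam on 18. With fasting, 3 of the 5 fell in p110αhep+/+ and 3 in p110αhep-/- livers on CTRL, and 1 in each genotype on HFD. Fst differed by genotype in the opposite direction to these markers and with fasting in the same direction, and the part of these cells in the results was not tested.

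Inhba, the subunit of activin A, fell with fasting in both genotypes and on both diets, by up to 4.21-fold. Its signal was 9.81 ± 0.32 in fed and 7.76 ± 0.27 in fasted p110αhep+/+ livers on CTRL. Genotype made no called difference in fed mice, and HFD lowered Inhba in fed p110αhep+/+ mice.

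On CTRL, the lowest, median and highest Inhba signals of p110αhep+/+ livers were 9.39, 9.78 and 10.24 when fed and 7.32, 7.79 and 8.12 when fasted. Those of p110αhep-/- livers on CTRL were 9.14, 9.74 and 10.02 when fed and 7.98, 8.52 and 8.89 when fasted. Fed and fasted arrays did not overlap in either genotype on CTRL. On HFD the p110αhep+/+ arrays read 8.70, 9.33 and 9.51 when fed and 7.25, 7.66 and 8.50 when fasted, without overlap. The p110αhep-/- arrays on HFD read 8.56, 8.94 and 9.66 when fed and 7.45, 8.22 and 8.56 when fasted, and the highest fasted array met the lowest fed one.

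The fasting difference in Inhba was -2.07 (SE 0.196, adjusted p = 3.57e-11) in p110αhep+/+ and -1.30 (SE 0.199, adjusted p = 1.44e-06) in p110αhep-/- livers on CTRL. On HFD it was -1.56 (SE 0.189, adjusted p = 1.88e-08) in p110αhep+/+ and -1.05 (SE 0.219, adjusted p = 0.000267) in p110αhep-/- livers. Point estimates were smaller in p110αhep-/- livers, but the genotype by fasting interaction did not pass on CTRL (0.78, 95% interval 0.21 to 1.34, adjusted p = 0.108) or on HFD (0.51, 95% interval -0.07 to 1.09, adjusted p = 0.386). By washing batch, the fasting difference of p110αhep-/- livers on HFD was -0.71 (adjusted p = 0.0774) and -1.37 (adjusted p = 0.00298), and the remaining 6 within-batch fasting differences were between -1.08 and -2.08 and passed.

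Fed p110αhep+/+ livers had lower Inhba on HFD, by a fitted 0.62 (SE 0.191, adjusted p = 0.0156), at 9.18 ± 0.35 against 9.81 ± 0.32. The corresponding difference in fed p110αhep-/- livers was -0.56 (adjusted p = 0.0772), and it passed in the first washing batch (adjusted p = 0.00967) but not in the second (-0.23, adjusted p = 0.813). It also passed without replicate 6 of the fed HFD group or replicate 5 of the fed CTRL group (adjusted p = 0.0406 and 0.0383). The genotypes were not shown to differ in it (interaction 0.06, adjusted p = 0.941). In fasted mice the diets differed by -0.11 in p110αhep+/+ and -0.32 in p110αhep-/- livers, neither passing (adjusted p = 0.746 and 0.378). The call in fed p110αhep+/+ livers rested in part on replicate 6 of the CTRL group, without which the difference was -0.54 (adjusted p = 0.0582), and within the washing batches it was -0.26 (adjusted p = 0.589) and -0.97 (adjusted p = 0.0232).

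Fasted p110αhep-/- livers on CTRL had more Inhba than fasted p110αhep+/+ livers, at 8.47 ± 0.40 against 7.76 ± 0.27, with a fitted difference of 0.64 (SE 0.194, adjusted p = 0.0125). By washing batch it was 0.41 (adjusted p = 0.275) and 0.73 (adjusted p = 0.0632). In fasted mice on HFD the difference was 0.43 (adjusted p = 0.101), and in fed mice it was -0.14 on CTRL and -0.07 on HFD. The HFD FASTED difference passed without replicate 6 of its p110αhep+/+ group (0.54, adjusted p = 0.0353) or replicate 2 of its p110αhep-/- group (0.61, adjusted p = 0.0258). Of 6 stellate cell markers (Lrat, Des, Reln, Dcn, Col1a1, Col3a1), 3 fell with fasting in p110αhep+/+ livers on CTRL, 2 in p110αhep-/- livers on CTRL, 1 in p110αhep+/+ livers on HFD and 3 in p110αhep-/- livers on HFD. Those that fell were Lrat, Col1a1 and Col3a1, and the summed signal of the 6 ranged from 22900 to 32600 in fed and from 21100 to 32100 in fasted p110αhep+/+ livers on CTRL. Dcn was much the brightest of the 6 (mean log2 signal 14.73, the others 6.18 to 11.06), so stellate sums here and below mainly follow Dcn. Des, Reln and Dcn passed in no fasting comparison, and the part of stellate cells in the Inhba result was not tested.

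Inhbb, the subunit of activin B, rose with fasting in 3 of 4 genotype and diet groups, and its fasting difference was larger in p110αhep-/- than in p110αhep+/+ livers on both diets. It also rose on HFD in fed mice of both genotypes, so that fasted p110αhep-/- livers on HFD held the highest signal of the 8 groups, 10.11 ± 0.43, against 7.38 ± 0.41 in fed p110αhep-/- livers on CTRL. Genotype made no called difference in fed mice.

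On CTRL, the lowest, median and highest Inhbb signals of p110αhep+/+ livers were 7.14, 7.47 and 7.98 when fed and 8.21, 8.56 and 8.93 when fasted. The p110αhep-/- arrays on CTRL read 6.98, 7.30 and 8.09 when fed and 9.17, 9.40 and 9.99 when fasted. Fed and fasted arrays did not overlap in either genotype, and every fasted p110αhep-/- array lay above every fasted p110αhep+/+ array. On HFD the p110αhep+/+ arrays read 7.78, 8.58 and 8.99 when fed and 8.48, 8.91 and 9.17 when fasted, which overlapped. On HFD the p110αhep-/- arrays read 8.01, 8.63 and 9.10 when fed and 9.77, 9.90 and 10.70 when fasted, again without overlap.

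The fasting difference in Inhbb on CTRL was 1.00 (SE 0.185, adjusted p = 4.08e-05), a 2.00-fold rise, in p110αhep+/+ livers and 2.08 (SE 0.189, adjusted p = 6.09e-12), a 4.24-fold rise, in p110αhep-/- livers. On HFD it was 0.29 (adjusted p = 0.248) in p110αhep+/+ livers and 1.62 (SE 0.207, adjusted p = 1.07e-07) in p110αhep-/- livers. The interaction of genotype and fasting passed on CTRL (1.08, SE 0.264, 95% interval 0.55 to 1.61, adjusted p = 0.0133) and on HFD (1.33, SE 0.273, 95% interval 0.78 to 1.88, adjusted p = 0.00267). With 3 mice per group in each washing batch, the interaction was 1.46 (adjusted p = 0.0384) and 0.64 (adjusted p = 0.634) on CTRL and 1.25 (adjusted p = 0.118) and 1.40 (adjusted p = 0.151) on HFD. The 2 diets were not shown to differ in their fasting response, with diet by fasting interactions of -0.71 (adjusted p = 0.14) in p110αhep+/+ and -0.47 (adjusted p = 0.36) in p110αhep-/- livers.

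HFD raised Inhbb by 1.00 (SE 0.181, adjusted p = 6.21e-05) in fed p110αhep+/+ and by 1.18 (SE 0.199, adjusted p = 4.54e-05) in fed p110αhep-/- livers. In fasted mice HFD raised it by 0.71 in p110αhep-/- livers (SE 0.197, adjusted p = 0.0139), while the difference in p110αhep+/+ livers was 0.29 (adjusted p = 0.305). The rise in fasted p110αhep-/- livers did not pass without replicate 2 of the fasted HFD p110αhep-/- group (0.57, adjusted p = 0.0806) or without replicate 3 (0.61, adjusted p = 0.0597). The HFD differences by washing batch were 1.05 (adjusted p = 0.00825) and 0.89 (adjusted p = 0.0568) in fed p110αhep+/+, 1.40 (adjusted p = 0.000406) and 0.93 (adjusted p = 0.187) in fed p110αhep-/- and 0.45 (adjusted p = 0.435) and 1.00 (adjusted p = 0.0517) in fasted p110αhep-/- livers.

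In fasted mice p110αhep-/- livers had 0.91 more Inhbb on CTRL (SE 0.183, adjusted p = 0.000205) and 1.34 more on HFD (SE 0.196, adjusted p = 8.73e-07), which is 1.89-fold and 2.53-fold. In fed mice the genotypes differed by -0.17 (95% interval -0.55 to 0.22) on CTRL and by 0.0094 (95% interval -0.37 to 0.39) on HFD. Within the washing batches the CTRL FASTED difference was 1.34 (adjusted p = 0.000526) and 0.45 (adjusted p = 0.338), and the HFD FASTED difference 1.48 and 1.24, both passing. Of 5 sinusoidal endothelial markers, 2 were higher in fasted p110αhep-/- livers on CTRL and 4 on HFD. Their summed signal ranged from 17100 to 19300 in fasted p110αhep-/- against 12600 to 17000 in fasted p110αhep+/+ livers on CTRL, without overlap, and from 16900 to 19100 against 10800 to 18000 on HFD. In fed mice, in which Inhbb showed no called genotype difference, it ranged from 16400 to 19600 against 12600 to 17100 on CTRL and from 15300 to 17500 against 12300 to 16200 on HFD. Of 5 leukocyte markers (Ptprc, Cd3e, Cd79a, S100a8, Ly6c2) 4 were measured, Cd79a being too dim, and their sum was lower in fasted p110αhep-/- livers without overlap, at 3760 to 4170 against 4400 to 5120 on CTRL and 3580 to 4460 against 5920 to 8570 on HFD. Singly, Ly6c2 was lower on CTRL (-0.88), and on HFD Ly6c2 (-1.84) and S100a8 (-1.28) were lower and Ptprc was higher (0.21). The leukocyte sum was also lower in fed p110αhep-/- livers on HFD, at 3880 to 5320 against 5480 to 6790. Its markers went both ways there, with 2 of 4 called higher and 1 lower. Beside the HFD rise of Inhbb in fed p110αhep+/+ livers, the median marker sums on HFD and CTRL were 37600 and 28100 for stellate cells, 3710 and 2510 for cholangiocytes and 5810 and 5200 for leukocytes. Called markers in this comparison numbered 3 higher of 6 for stellate cells, 1 higher of 5 for cholangiocytes, and 2 higher and 2 lower of 4 for leukocytes. The part of these cell types in the Inhbb results was not tested.

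**Figure D2:**
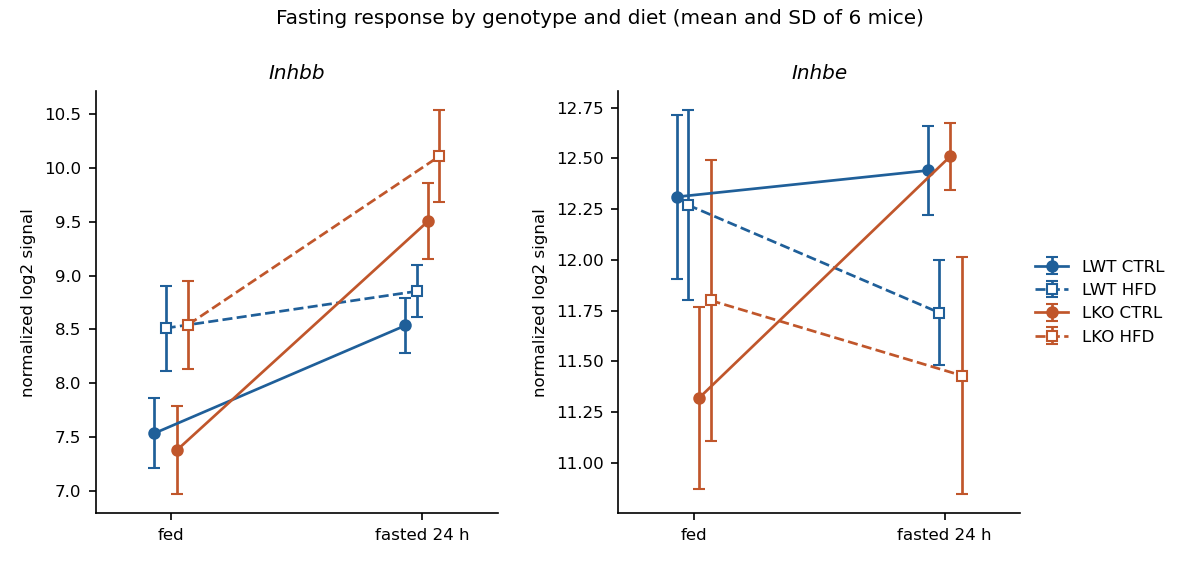
Mean and SD (6 mice) of normalized log2 signal in fed and fasted livers for Inhbb and Inhbe, by genotype (blue, LWT; orange, LKO) and diet (solid line and circle, CTRL; dashed line and open square, HFD); the axes do not start at 0. The Inhbb lines are steeper in LKO, reaching 10.11 on HFD, and Inhbe rises in LKO on CTRL, from 11.32 to 12.51.

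Inhbe, the subunit of activin E, was lower in fed p110αhep-/- livers on CTRL than in p110αhep+/+ livers, at 11.32 ± 0.45 against 12.31 ± 0.40, and fasting brought it to 12.51 ± 0.17 in p110αhep-/- livers. No fasting difference passed in the other 3 genotype and diet groups with all arrays in the fit. In fasted mice HFD lowered Inhbe in both genotypes.

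On CTRL, the lowest, median and highest Inhbe signals of p110αhep+/+ livers were 11.84, 12.39 and 12.71 when fed and 12.22, 12.39 and 12.86 when fasted. Those of p110αhep-/- livers on CTRL were 10.89, 11.17 and 12.12 when fed and 12.28, 12.54 and 12.70 when fasted. All fasted p110αhep-/- arrays on CTRL lay above all fed ones, while the p110αhep+/+ arrays overlapped. On HFD the p110αhep+/+ arrays read 11.72, 12.29 and 13.05 when fed and 11.37, 11.71 and 12.09 when fasted. On HFD the p110αhep-/- arrays read 10.97, 11.77 and 12.62 when fed and 10.74, 11.40 and 12.11 when fasted. The widest spread was in fed p110αhep-/- livers on HFD, with an SD of 0.69, and on HFD fed and fasted arrays overlapped in both genotypes.

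Fasting raised Inhbe in p110αhep-/- livers on CTRL by 1.19 (SE 0.23, adjusted p = 6.55e-05), a 2.28-fold change. The difference was 0.10 (adjusted p = 0.781) in p110αhep+/+ livers on CTRL, -0.52 (adjusted p = 0.0689) in p110αhep+/+ livers on HFD and -0.53 (adjusted p = 0.117) in p110αhep-/- livers on HFD. The last was -0.03 and -0.95 (adjusted p = 0.0293) by washing batch, and it passed without replicate 4 or 5 of the fed group (-0.70 and -0.69, adjusted p = 0.0337 and 0.0486). The difference in p110αhep+/+ livers on HFD passed without replicate 4 of the fed group (-0.67, adjusted p = 0.0245). In p110αhep-/- livers the fasting response differed between the diets (diet by fasting interaction -1.72, SE 0.342, 95% interval -2.41 to -1.03, adjusted p = 0.00075), and in p110αhep+/+ livers this interaction was -0.62 (adjusted p = 0.325). By washing batch, the interaction in p110αhep-/- livers was -0.94 (adjusted p = 0.341) and -2.55 (adjusted p = 0.0022). The genotype by fasting interaction on CTRL was 1.09 (SE 0.323, adjusted p = 0.0459), and on HFD it was -0.0076 (adjusted p = 0.996). The CTRL interaction was lost when any of 17 of its 24 arrays was left out (log2 values 1.01 to 1.13, adjusted p up to 0.0898) and when the washing batch or the slide was fitted as a block (1.07 and 1.04, adjusted p = 0.0565 and 0.0636). By washing batch it was 1.13 and 1.25 and passed in neither (adjusted p = 0.255 and 0.229). In p110αhep-/- livers on CTRL, where fasting raised Inhbe and Inhbb, 3 of 33 measured cell type markers were called higher and 11 lower. All 3 erythroid markers (Hba-a1, Hbb-b1, Alas2) were among the lower ones. The part of these cells in the results was not tested.

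Fed p110αhep-/- livers on CTRL had 1.04 less Inhbe than p110αhep+/+ livers (SE 0.233, adjusted p = 0.000943), and 1 of the 6 p110αhep-/- arrays, at 12.12, lay within the p110αhep+/+ range. On HFD the fed genotypes differed by -0.32 (adjusted p = 0.315). In fasted mice the genotype differences were 0.05 on CTRL and -0.33 on HFD, with adjusted p of 0.911 and 0.307. Within the washing batches the CTRL FED difference was -1.10 (adjusted p = 0.0663) and -1.25 (adjusted p = 0.00405). The cholangiocyte sum was lower in the same comparison, at 750 to 1060 against 1600 to 3760, and its part in the Inhbe result was not tested.

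In fasted mice HFD lowered Inhbe by 0.76 (SE 0.223, adjusted p = 0.0166) in p110αhep+/+ and by 1.13 (SE 0.24, adjusted p = 0.0012) in p110αhep-/- livers, with no overlap between the diets in either genotype. In fed mice the diet differences were -0.14 (adjusted p = 0.707) in p110αhep+/+ and 0.59 (adjusted p = 0.116) in p110αhep-/- livers. The latter was 0.04 (adjusted p = 0.963) and 1.13 (adjusted p = 0.0599) by washing batch. It passed without replicate 1 of the fed CTRL group (0.73, adjusted p = 0.0466) or replicate 4 of the fed HFD group (0.755, adjusted p = 0.0394). The call in fasted p110αhep+/+ livers was lost without replicate 2 of the fasted HFD group (-0.68, adjusted p = 0.0537) or replicate 5 of the fasted CTRL group (-0.67, adjusted p = 0.0532). Within the washing batches the fasted diet differences were -0.69 (adjusted p = 0.288) and -0.88 (adjusted p = 0.036) in p110αhep+/+ and -0.90 (adjusted p = 0.273) and -1.42 (adjusted p = 0.0037) in p110αhep-/- livers. In fasted p110αhep+/+ livers the leukocyte sum (5920 to 8570 on HFD against 4400 to 5120 on CTRL), the cholangiocyte sum (2310 to 3760 against 1450 to 2380) and the stellate sum (27100 to 42000 against 21100 to 32100) were also shifted upward on HFD, the last 2 with overlap. Called markers numbered 2 higher and 1 lower of 4 for leukocytes, 1 higher of 5 for cholangiocytes and 3 higher of 6 for stellate cells. In fasted p110αhep-/- livers the stellate sum ran from 29600 to 36400 on HFD against 22600 to 31100 on CTRL, with 0 of its 6 markers called. The part of these cells in the Inhbe result was not tested.

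Inhbc, the subunit of activin C and the genomic neighbour of Inhbe, had the narrowest range of group means among the members. Its group means ran from 10.41 ± 0.13 in fasted p110αhep+/+ livers on HFD to 11.07 ± 0.20 in fed p110αhep-/- livers on HFD. Fasting lowered it on HFD in both genotypes, and no HFD difference or interaction passed in the fit of all arrays. The HFD difference in fed p110αhep-/- livers (0.33, adjusted p = 0.0888) passed with the slide as a block (adjusted p = 0.0347) and without replicate 6 of the fed CTRL group (0.42, adjusted p = 0.0235).

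On HFD, the lowest, median and highest Inhbc signals of p110αhep+/+ livers were 10.49, 10.72 and 10.90 when fed and 10.28, 10.39 and 10.66 when fasted. In p110αhep-/- livers on HFD they were 10.74, 11.12 and 11.27 when fed and 10.34, 10.47 and 10.82 when fasted. In both genotypes 1 high fasted array brought the ranges into overlap. On CTRL the p110αhep+/+ arrays read 9.91, 10.63 and 10.71 when fed and 10.01, 10.57 and 10.65 when fasted. The p110αhep-/- arrays on CTRL read 10.50, 10.68 and 11.25 when fed and 10.18, 10.56 and 10.86 when fasted, and the 4 CTRL groups overlapped throughout.

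The fasting difference in Inhbc on HFD was -0.33 (SE 0.115, adjusted p = 0.0253) in p110αhep+/+ and -0.58 (SE 0.133, adjusted p = 0.000911) in p110αhep-/- livers, and on CTRL it was -0.02 and -0.18 (adjusted p = 0.902 and 0.252). Fed p110αhep-/- livers on HFD had 0.34 more Inhbc than p110αhep+/+ livers (SE 0.122, adjusted p = 0.0277), and the genotype differences in the remaining conditions were 0.05 to 0.21 and did not pass. The call in p110αhep+/+ livers was lost without any of 3 of its 12 arrays (adjusted p 0.0578 to 0.0891) and the genotype call without any of 5 of its 12 arrays (adjusted p 0.0511 to 0.0965). By washing batch, the fasting difference on HFD was -0.36 and -0.31 in p110αhep+/+ (adjusted p = 0.255 and 0.112) and -0.48 (adjusted p = 0.126) and -0.65 (adjusted p = 0.00667) in p110αhep-/- livers, and the genotype difference in HFD FED was 0.20 (adjusted p = 0.529) and 0.46 (adjusted p = 0.0338).

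**Figure D3:**
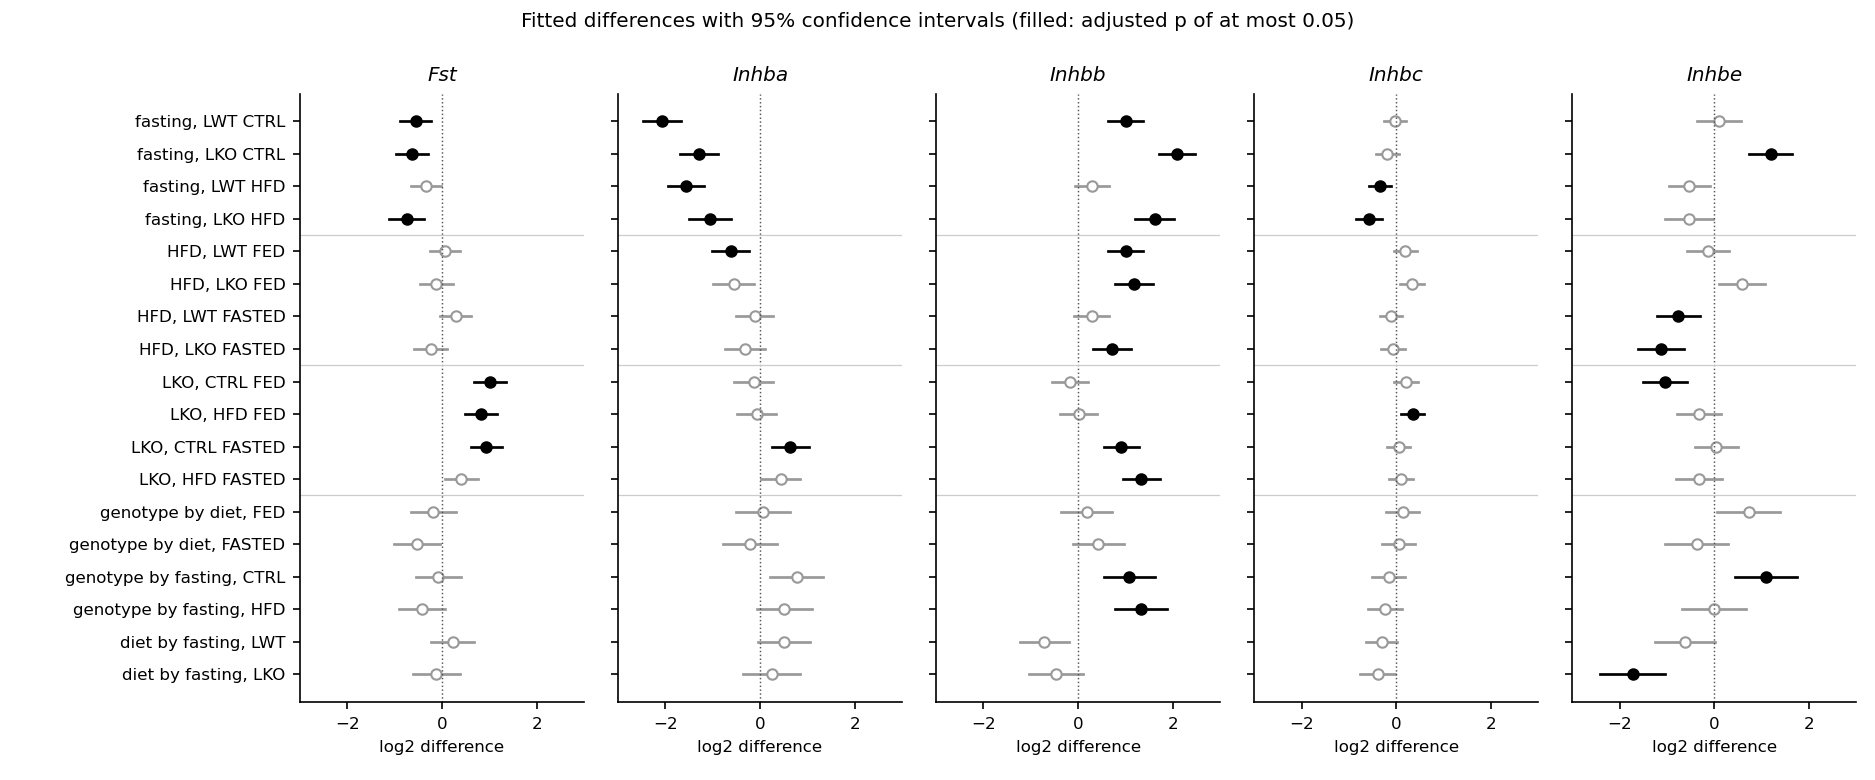
Fitted log2 differences with 95% confidence intervals for each member in 12 comparisons of fasting, HFD and genotype and in 6 interactions; filled points have an adjusted p of at most 0.05. Inhba is below 0 in all 4 fasting rows (-2.07 to -1.05), Fst above 0 in all 4 genotype rows (0.41 to 1.01, of which 3 are filled), and the filled interactions belong to Inhbb and Inhbe.

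Members called were counted beside the share of all 20486 genes called by the same rule. With fasting, 3 of 5 members passed in p110αhep+/+ on CTRL (32.6% of all genes), 4 in p110αhep-/- on CTRL (35.5%), 2 in p110αhep+/+ on HFD (28.6%) and 4 in p110αhep-/- on HFD (28.6%). With HFD, 2 passed in fed p110αhep+/+ (24%), 1 in fed p110αhep-/- (12.3%), 1 in fasted p110αhep+/+ (16%) and 2 in fasted p110αhep-/- livers (10.8%). Between genotypes, 2 passed in CTRL FED (21.7%), 2 in HFD FED (33%), 3 in CTRL FASTED (24.9%) and 1 in HFD FASTED (36.9%). Of the interactions, genotype by fasting passed for 2 members on CTRL (3.97% of all genes) and 1 on HFD (3.49%), diet by fasting for 1 in p110αhep-/- (8%) and 0 in p110αhep+/+ livers (2.36%), and genotype by diet for 0 members in FED (3.03%) and 0 in FASTED mice (5.09%). For the 0 counts, limma gave an unadjusted p under 0.05 for Inhbe in FED (0.0326), for Fst in FASTED (0.0313) and for Inhbb in p110αhep+/+ diet by fasting (0.00822). The member median lay between -0.58 and 0.78 over the 18 comparisons, against -0.02 to 0.03 for all genes, and the comparisons share groups, so their counts are not independent.

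When the 8 groups were put in order of their means, few neighbours in the order differed. For Fst the order was led by fed p110αhep-/- livers on CTRL and HFD, and of the 7 neighbouring pairs only fed p110αhep-/- on HFD against fasted p110αhep-/- on CTRL passed (0.59, adjusted p = 0.0159). For Inhba, 2 pairs passed, fed p110αhep-/- on CTRL above fed p110αhep+/+ on HFD (0.50, adjusted p = 0.0421) and fed p110αhep-/- on HFD above fasted p110αhep-/- on CTRL (0.59, adjusted p = 0.0038). For Inhbb, fasted p110αhep-/- on HFD lay above fasted p110αhep-/- on CTRL (0.61 by the group means, adjusted p = 0.0139), which lay above fasted p110αhep+/+ on HFD (0.65, adjusted p = 0.00495), and fed p110αhep+/+ on HFD lay above fed p110αhep+/+ on CTRL (0.98, adjusted p = 6.21e-05). For Inhbc and Inhbe, 0 of 7 neighbouring pairs passed.

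Over the 48 arrays, which share groups and are not independent, the members' signals correlated by Pearson's r of -0.627 between Inhba and Inhbb, 0.468 between Fst and Inhbc, 0.461 between Fst and Inhba and 0.421 between Inhba and Inhbc. The remaining pairs lay between -0.314 and 0.0563. After the group means were taken out, Inhba and Inhbe gave 0.39, Inhba and Inhbc 0.35 and Inhbb and Inhbe -0.411. These values are descriptions across arrays without a test.

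The genes whose signals most resembled each member over the 48 arrays were found by Pearson's r among 20457 genes. For Fst they were Ssrp1 (0.794), Cpne2 (0.792) and Plxnb1 (0.787). For Inhbb they were Itprip (0.886), a probe named only by a cDNA record (0.853) and Maff (0.844), a small MAF transcription factor. For Inhbe they were G0s2 (0.855), an inhibitor of adipose triglyceride lipase, Tor3a (0.708) and Epha2 (0.694), and for Inhbc Armc6 (0.761), Rtn4rl1 (0.724) and the co-chaperone Stip1 (0.709). For Inhba they were 9530076L18 (0.946), a probe named only by its position (0.901) and Tmpo (0.896). The likeness to Inhba was the highest of the 15 values.

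The 9530076L18 transcript lies beside Inhba, with its probe (chr13:16122178-16122237, plus strand, mm9) 3544 bases downstream of the Inhba probe. Its group means were 6.39 in p110αhep+/+ on CTRL, 5.97 in p110αhep+/+ on HFD, 6.16 in p110αhep-/- on CTRL and 5.92 in p110αhep-/- on HFD when fed, and 5.44, 5.30, 5.68 and 5.58 when fasted, in the same order. It fell with fasting by 0.94 (adjusted p = 1.02e-08) in p110αhep+/+ and by 0.52 (adjusted p = 0.000347) in p110αhep-/- livers on CTRL, and by 0.74 (adjusted p = 8.89e-07) and 0.39 (adjusted p = 0.0184) on HFD. Like Inhba, it was lower on HFD in fed p110αhep+/+ livers (-0.39, adjusted p = 0.00854). In fasted mice on CTRL its genotype difference was 0.20 and did not pass (adjusted p = 0.193), where that of Inhba was 0.64 and passed. On HFD it was 0.30 and passed (adjusted p = 0.0465), where that of Inhba was 0.43 and did not (adjusted p = 0.101). Its signal was low, with group means of 5.30 to 6.39. Whether both probes read 1 transcript cannot be told from these arrays.

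**Figure D4:**
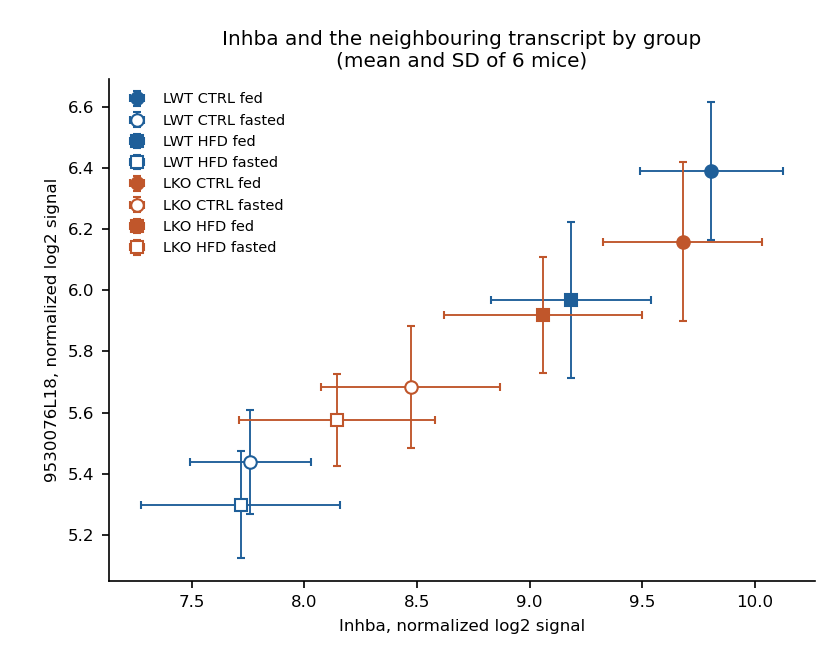
Group means with SD (6 mice) of normalized log2 signal for Inhba (horizontal axis) and the neighbouring transcript 9530076L18 (vertical axis) in the 8 groups (blue, LWT; orange, LKO; circle, CTRL; square, HFD; filled, fed; open, fasted); neither axis starts at 0. Fasted groups lie at the lower left (Inhba 7.72 to 8.47) and fed groups at the upper right (9.06 to 9.81).

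The receptors and other ligands of the pathway were taken from a list of 29 further genes, of which 25 were measured. Inha, the alpha subunit that turns activins into inhibins, Mstn, Gdf11 and the type I receptor Acvr1c were well above background on at most 2 arrays each and were not kept. Called genes of the 25 numbered 5 higher and 2 lower with fasting in p110αhep+/+ on CTRL, 6 and 5 in p110αhep-/- on CTRL, 3 and 1 in p110αhep+/+ on HFD and 9 and 3 in p110αhep-/- on HFD. With HFD they numbered 5 higher and 7 lower in fed p110αhep+/+, 0 and 5 in fed p110αhep-/-, 2 and 6 in fasted p110αhep+/+ and 2 and 3 in fasted p110αhep-/- livers. In p110αhep-/- livers 7 were higher and 0 lower in CTRL FED, 4 and 6 in HFD FED, 3 and 1 in CTRL FASTED and 7 and 3 in HFD FASTED. All genes called in the same comparisons, in either direction, made up 28.6% to 35.5% with fasting, 10.8% to 24% with HFD and 21.7% to 36.9% between genotypes, and the counts of the 25 are read beside these shares. The list's median stayed between -0.08 and 0.10 over the 18 comparisons, against -0.02 to 0.03 for all genes.

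Acvr2b, a type II receptor for activins, differed most by genotype among the receptors. It was higher in p110αhep-/- livers in all 4 conditions, by 1.06 (adjusted p = 2.13e-07) in CTRL FED, 1.20 (adjusted p = 4.24e-09) in HFD FED, 0.81 (adjusted p = 9.81e-06) in CTRL FASTED and 1.17 (adjusted p = 1.86e-08) in HFD FASTED. HFD lowered it by 0.83 in fed p110αhep+/+, by 0.68 in fed p110αhep-/- and by 0.68 in fasted p110αhep+/+ livers, and the difference of -0.32 in fasted p110αhep-/- livers did not pass (adjusted p = 0.155). Its other, dimmer probe was also called higher in p110αhep-/- livers in all 4 conditions, by 0.61 to 0.79. Acvr2a, the other type II receptor, passed in 4 of the 12 comparisons with differences of -0.20 to 0.25, and its other probe passed in no comparison. The coreceptor Tgfbr3 was higher in p110αhep-/- livers in all 4 conditions, by 0.25 to 0.53. Acvr1b, a type I receptor, rose with fasting by 0.48 (adjusted p = 2.95e-06) in p110αhep+/+ livers on HFD and was 0.41 lower in fasted p110αhep-/- livers on HFD (adjusted p = 0.000144), where its other probe gave -0.16 (adjusted p = 0.134). Acvr1, a type I receptor of BMPs, fell with fasting by 0.48 in p110αhep-/- livers on CTRL (adjusted p = 4.72e-10), and its other called differences between groups were 0.28 or less.

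Antagonists, inhibitors and target genes changed with diet, fasting or genotype, each in part of the comparisons. Fstl3, a follistatin relative that also binds activins, was 0.31 higher on HFD in fed p110αhep+/+ livers (adjusted p = 0.037) and 0.36 lower in fed p110αhep-/- than in fed p110αhep+/+ livers on HFD (adjusted p = 0.0125). Smad7, an inhibitory SMAD, was lower on HFD in fed p110αhep+/+ (-0.62, adjusted p = 0.000945) and fasted p110αhep+/+ livers (-0.67, adjusted p = 0.000896). Id1, a target of BMP and SMAD signalling, was lower on HFD in all 4 comparisons, by 1.09 to 1.54, and rose with fasting in p110αhep-/- livers on CTRL by 1.41 (adjusted p = 9.62e-05). Bmp6 fell with HFD by 0.76 in fed p110αhep+/+ and by 0.72 in fasted p110αhep-/- livers, and Bmp2 fell by 0.78 in fed p110αhep-/- livers and rose with fasting by 0.85 in p110αhep-/- livers on HFD. Fstl1, a distant relative of follistatin, rose with HFD by 0.71 in fed and by 0.63 in fasted p110αhep+/+ livers. A second probe also rose (0.56 and 0.77), but the dimmest of its 3 probes gave -0.14 (adjusted p = 0.174) and -0.11 (adjusted p = 0.353). Gdf15, a stress-induced member of the TGF-beta family, rose with fasting by 1.64 (adjusted p = 9.72e-05) in p110αhep+/+ and by 1.17 (adjusted p = 0.00473) in p110αhep-/- livers on CTRL. Ccn2, a target of TGF-beta and SMAD3, rose on HFD in fed p110αhep+/+ livers by 0.98 (adjusted p = 0.0212).

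**Figure D5:**
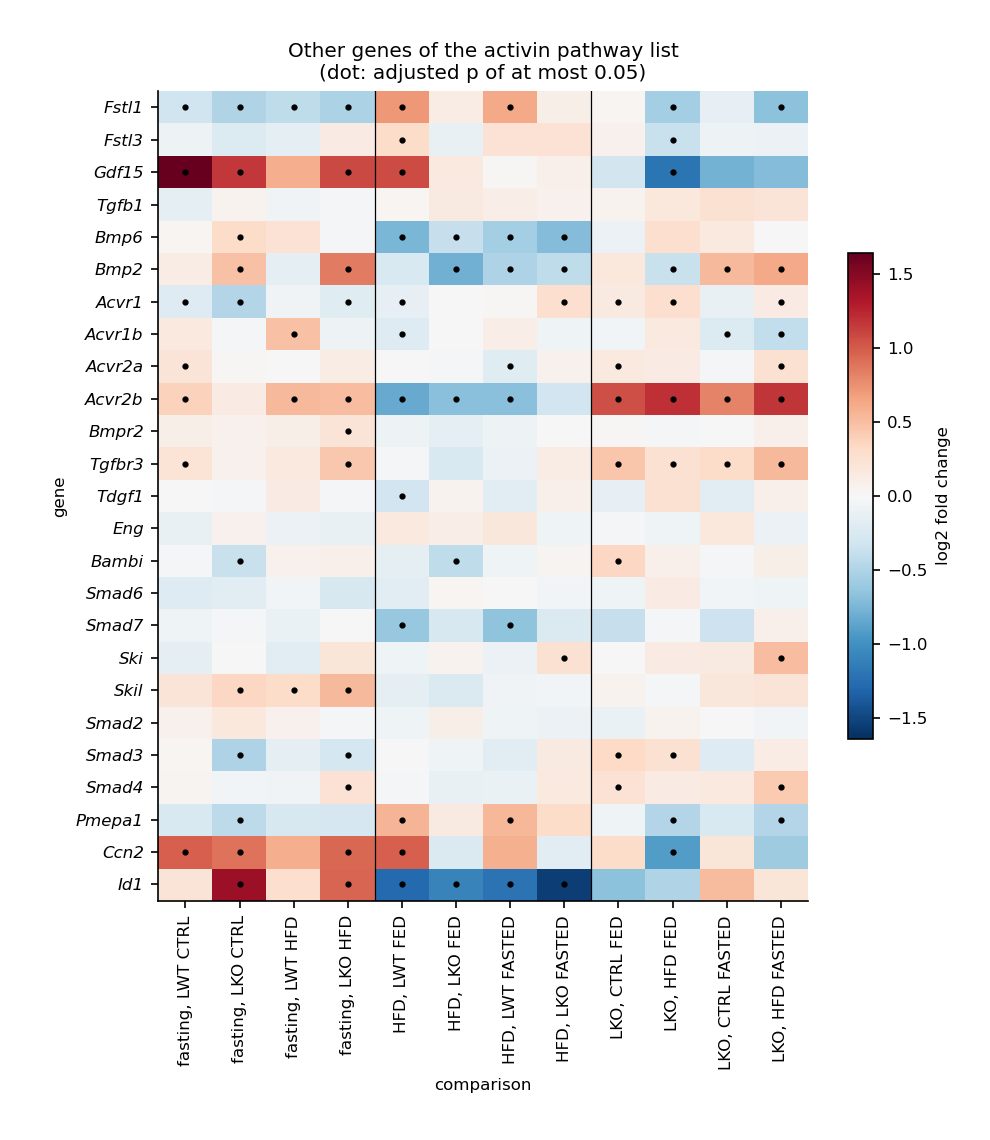
Fitted log2 fold changes (colour, red higher and blue lower) of the 25 measured genes of the activin pathway list in 12 comparisons of fasting, HFD and genotype, with a dot where the adjusted p is at most 0.05. The Acvr2b row is red with a dot in all 4 genotype columns (0.81 to 1.20), and the Id1 row is blue with a dot in all 4 HFD columns (-1.54 to -1.09).

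Genes known to follow FOXO1 and ATF4 were read beside the members. Of 13 such genes and regulators, 9 rose and 1 fell with fasting in p110αhep+/+ livers on CTRL, 7 and 2 in p110αhep-/- on CTRL, 7 and 1 in p110αhep+/+ on HFD and 5 and 0 in p110αhep-/- on HFD. In p110αhep-/- livers 4 were higher and 0 lower in CTRL FED, 3 and 1 in HFD FED, 3 and 1 in CTRL FASTED and 5 and 1 in HFD FASTED. Of all genes, 32.6%, 35.5%, 28.6% and 28.6% were called in the fasting comparisons in this order, and 21.7%, 33%, 24.9% and 36.9% in the genotype comparisons. The median of the 13 was 0.38 to 0.84 over the fasting comparisons and 0.14 to 0.29 over the genotype comparisons, against -0.0011 to 0.033 for all genes.

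Irs2, an adaptor of the insulin receptor and a FOXO1 target, was higher in p110αhep-/- livers in all 4 conditions, by 1.93 in CTRL FED, 1.48 in HFD FED, 0.88 in CTRL FASTED and 0.91 in HFD FASTED. Fst was higher in the first 3 of these, but unlike Irs2, which rose with fasting by 1.94 (adjusted p = 1.19e-07) in p110αhep+/+ and by 0.89 (adjusted p = 0.00697) in p110αhep-/- livers on CTRL, Fst fell. Igfbp1, an insulin-repressed FOXO1 target, was 3.28 higher in p110αhep-/- livers in CTRL FED (adjusted p = 8.2e-07) and showed a difference of -0.05 in HFD FED (adjusted p = 0.947), while in fasted mice it was higher by 1.91 on CTRL (adjusted p = 0.00113) and by 1.65 on HFD (adjusted p = 0.00539). Foxo1 rose with fasting in all 4 groups, by 0.67 to 0.99. Atf4 fell with fasting by 0.40 in both genotypes on CTRL and by 0.34 in p110αhep+/+ livers on HFD. Trib3, an ATF4 target, rose with fasting in all 4 groups, by 0.52 to 1.52, and Asns, another, passed in none of the 12 comparisons of fasting, diet and genotype. Inhbe, whose promoter holds the ATF4 element shown above, rose with fasting in p110αhep-/- livers on CTRL, where Trib3 rose by 0.52 (adjusted p = 0.0135), Ddit3 fell by 0.67 (adjusted p = 0.00154) and Asns, Atf3 and Chac1 gave 0.68 (adjusted p = 0.123), 0.40 (adjusted p = 0.158) and -0.03 (adjusted p = 0.972). In p110αhep-/- livers on HFD, where the Inhbe difference was -0.53 and did not pass, Chac1 rose by 1.67 (adjusted p = 0.0119) and Trib3 by 0.68 (adjusted p = 0.00439). There Ddit3, Asns and Atf3 gave -0.07 (adjusted p = 0.82), 0.03 (adjusted p = 0.962) and -0.17 (adjusted p = 0.654).

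Other genes of the list changed in part of the comparisons. Pck1, a gluconeogenic enzyme and FOXO1 target, rose with fasting by 2.19 (adjusted p = 2.69e-11) in p110αhep+/+ livers on CTRL and was 1.44 higher in p110αhep-/- livers in CTRL FED (adjusted p = 2e-06). Ppargc1a, a coactivator of fasting metabolism, rose with fasting by 0.93 (adjusted p = 1.86e-06) in p110αhep+/+ and by 0.83 (adjusted p = 1.62e-05) in p110αhep-/- livers on CTRL. Atf3, a stress-induced transcription factor, was higher on HFD by 1.05 in fed and 1.06 in fasted p110αhep+/+ livers, and in fed mice on HFD it was 0.97 lower in p110αhep-/- than in p110αhep+/+ livers (adjusted p = 0.00065).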

How the data were processed

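Total RNA (200 ng) from 48 livers was labelled with Cy3 and hybridized to one-colour Agilent mouse arrays on 6 slides, each holding 1 array of every group, washed in 2 batches of 3 slides. The deposited spot intensity values were extracted by the authors with Agilent Feature Extraction 10.10.1.1, per the file headers and the submitters' processing notes, and are not normalized between arrays. The deposited log2 table was normalized by the authors with limma, whose filter on probes is not given in the sources used here; it served as an alternative.

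From the scanner files, log2 median signals of 56605 non-control probes were taken, outlier spots were dropped and spots of a probe averaged. A probe was kept if well above background on at least 5 of 6 arrays of a group (30793 probes). The washing batch was removed with the group means protected, arrays were quantile normalized, and limma 3.58.1 (with statmod 1.5.0, R 4.3.3) fitted group means with array weights and 18 contrasts over all 48 arrays. Adjusted p-values are Benjamini-Hochberg over all probes kept, and a probe was called at 0.05 or less, the rule of the study's methods. A gene is represented by its brightest probe, and precision is bounded by the 6 arrays of a group. The limma fit, without the filter, batch and normalization steps before it, was tested on simulated data. Columns of per-sample values left unmapped numbered 0.

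The members, the lists of pathway genes, regulators and cell type markers, and the tests were chosen with earlier results of these data known. Named are the 5 members, the genes of these lists (receptors, Fstl3, Inha, Smad7 and any listed pathway gene or regulator called with a fold above 1.5 for fasting, diet or genotype) and the 3 genes most like each member. Alternatives changed the signal, background correction, scaling, filter, batch, slide and replicate terms, array weights, arrays fitted, call rule and arrays left out. Of the pathway list, 1 gene is not reported here and is left out of its counts.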

Additional observations from a re-analysis of the deposited data

Results flagged for a closer look

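In 5 of the 40 groups of 6 arrays examined (5 members in 8 groups), 1 array stood apart from the other 5 by Dixon's test at the 95% level, and chance alone marks about 1 group in 20. For Fst it was replicate 1 of fed p110αhep+/+ mice on HFD, at 7.70, with the nearest array at 6.76, and this liver alone carried that group into the range of fed p110αhep-/- livers on HFD. For Inhbc there were 3 such arrays, replicate 4 of fed p110αhep+/+ mice on CTRL (9.906, nearest 10.44), replicate 2 of fasted p110αhep+/+ mice on CTRL (10.01, nearest 10.51) and replicate 5 of fasted p110αhep-/- mice on HFD (10.82, nearest 10.48). For Inhbe it was replicate 5 of fasted p110αhep+/+ mice on CTRL, at 12.86 with the nearest at 12.45, and without it the HFD difference in fasted p110αhep+/+ livers was -0.67 (limma adjusted p = 0.0532). What set these arrays apart was not tested.

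The response to fasting differed between groups for Inhbb and Inhbe. The genotype by fasting interaction of Inhbb was 1.083 on CTRL and 1.328 on HFD (limma adjusted p = 0.0133 and 0.00267), and that of Inhbe on CTRL was 1.089 (adjusted p = 0.0459). The diet by fasting interaction of Inhbe in p110αhep-/- livers was -1.721 (adjusted p = 0.00075).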

How the results depend on the processing

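Of the 31 member differences called by limma, 12 were called in all 15 alternatives (arrays left out in turn aside), and no called value changed direction. With 3 arrays per group, members called fell from 6 to 3 for diet in each washing batch, from 8 to 5 for genotype in batch 1 and from 4 to 1 for interactions in each batch, and in the other alternatives the counts stayed within 1.5 times. Leaving out each array in turn gave 12 to 14 for fasting, 5 to 7 for diet, 7 to 9 for genotype and 3 to 4 for interactions, with 25 of the 31 never lost. The call most dependent on the processing was the Inhbe interaction of genotype and fasting on CTRL (called in 7 of 15 alternatives, 1.02 to 1.25). Next came the fasting difference of Inhbc in p110αhep+/+ livers on HFD (called in 9 of 15, -0.36 to -0.293). The genotype difference of Fst in HFD FASTED followed, not called in the main analysis and called in 5 of 15. After the group means were taken out, same-numbered arrays had a mean r of 0.0189 over 168 pairs, against -0.00364 for other numbers. Of the 48 arrays, 16 were most like an array of their own number. Whether the replicate number pairs the mice was not settled by these values. With the replicate block 12 fasting, 6 diet, 9 genotype and 3 interaction differences were called. It lost Inhbc with fasting in p110αhep+/+ livers on HFD (-0.317, adjusted p = 0.0558) and the Inhbe interaction (1.07, adjusted p = 0.0636), and gained Fst in HFD FASTED (0.429, adjusted p = 0.036). Over all probes 643 to 10734 were called per comparison, against 239 to 1934 with a fold above 1.5 required, 236 to 9697 without the filter on dim probes, 347 to 9861 without batch correction, 429 to 11080 with the replicate block, 246 to 10254 without array weights, 434 to 9589 with the arrays of the comparison alone, and 11 to 6967 and 5 to 6804 within the batches. No scaling moved the median of all probes beyond -0.0604 to 0.0654. Each member has 1 probe, so the median over probes gave the same values. The causes of lost calls were not tested; the within-batch fits held fewer samples.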
